A study of Mus musculus with 33 samples.

Results

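The lungs of newborn mice that had breathed room air for 24 h were compared with the lungs of fetuses at day 21 of gestation (F21), the last day before birth. Arrays were chosen by their titles, which give age and oxygen level: 3 arrays of newborns 24 h after birth and 3 arrays of F21 fetuses, all titled 21% oxygen. These make 6 of the 33 arrays of the series. For fetuses the title can only mean the air of the dam, since the study describes the lung before birth as fluid-filled and relatively hypoxic. Both groups are whole lung of mice whose strain the labels spell C57/BL, C57/Black or BL/57, with no genetic change or treatment named. The study asked which transcripts change in the lung as it first meets air. It also holds lungs of room air at 2, 6 and 12 h after birth, lungs of mice born into 10% oxygen, and livers. The dams were left to give birth, so the comparison spans birth, the onset of breathing, the rise in oxygen and 1 day of further growth. These cannot be told apart here.

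At birth the lung turns from a fluid-filled, secreting organ into one that exchanges gas. Its epithelium switches from secreting chloride and liquid to absorbing sodium, its vessels dilate, and surfactant, made by type 2 cells, lowers surface tension in the air spaces. Birth also comes with a surge of glucocorticoids and catecholamines, a fall in body temperature, a rise in oxygen tension and the first contact with inhaled particles and microbes. In the mouse, the thin alveolar walls form only later, so that the lung at both ages is still immature and contains many dividing and matrix-producing cells.

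The values were linear signal intensities, scaled by the authors to a common target on every array, and were compared on the log2 scale after signals under 10 had been set to 10. A change is given as the mean log2 signal at 24 h minus that at F21, with the standard error (SE) and the Benjamini-Hochberg adjusted p of limma, which was fitted over all 24 lung arrays. A probe set was taken to have passed at an adjusted p under 0.05. The 3 samples of a group were said to come from 3 mice, but the labels do not say that they came from separate litters, so that p-values measure the spread between these samples. With 3 arrays per group, their number limits the precision: the median SE of a change was 0.417. Pearson's r between arrays of a group, across tested probe sets, was 0.852 to 0.894 at 24 h and 0.874 to 0.885 at F21. Between 19.7% and 22.2% of probe sets lay under 10 on the 24 h arrays, against 16.3% to 18.4% on the F21 arrays, so that the groups did not overlap in this share. The ratio of the 3′ to the 5′ probe set of Actb, a sign of RNA quality, was 1.56, 1.70 and 1.56 at 24 h, against 1.37, 1.23 and 1.33 at F21, and did not overlap either, whereas that of Gapdh was 0.816 to 1.15 at 24 h and 0.824 to 1.03 at F21. Hybridization controls differed as well. At 24 h and at F21, BioC was 469.8 to 528.3 and 612.4 to 1378, and BioDn 308.5 to 410.4 and 425.8 to 1194. CreX was 3336 to 4058 and 4918 to 13230. None of these overlapped, while BioB did, at 132.9 to 167.1 and 151.2 to 396.8. The part of the share under 10, of the Actb ratio and of these controls in the changes was not tested. The type 2 cell marker Sftpc, which encodes surfactant protein C, had signals of 41463, 45559 and 43704 at 24 h, against 54367, 44418 and 43575 at F21. It was high on each of the 6 arrays, which fits the labelled tissue.

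Of 6930 probe sets tested, 40 passed, 30 of them higher and 10 lower at 24 h. These were 0.577% of all tested probe sets (0.433% higher and 0.144% lower), and 279 had an unadjusted p under 0.01. They stood for 37 genes, and 3 of the rising probe sets had no single gene symbol. Rises spanned log2 0.76 to 3.57 and falls log2 -1.06 to -2.0, over a median change of -0.04 for all probe sets. The 40 rested on a spread estimated from all 8 lung groups: when limma was fitted on the 6 arrays alone, none passed, although 254 had an unadjusted p under 0.01. The counts also turned on single arrays, since 123 passed (92 higher, 31 lower) without the second 24 h array and 6 (all higher) without the first F21 array. None of the 40 changed sign in any of the 16 other limma settings.

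**Figure D1:**
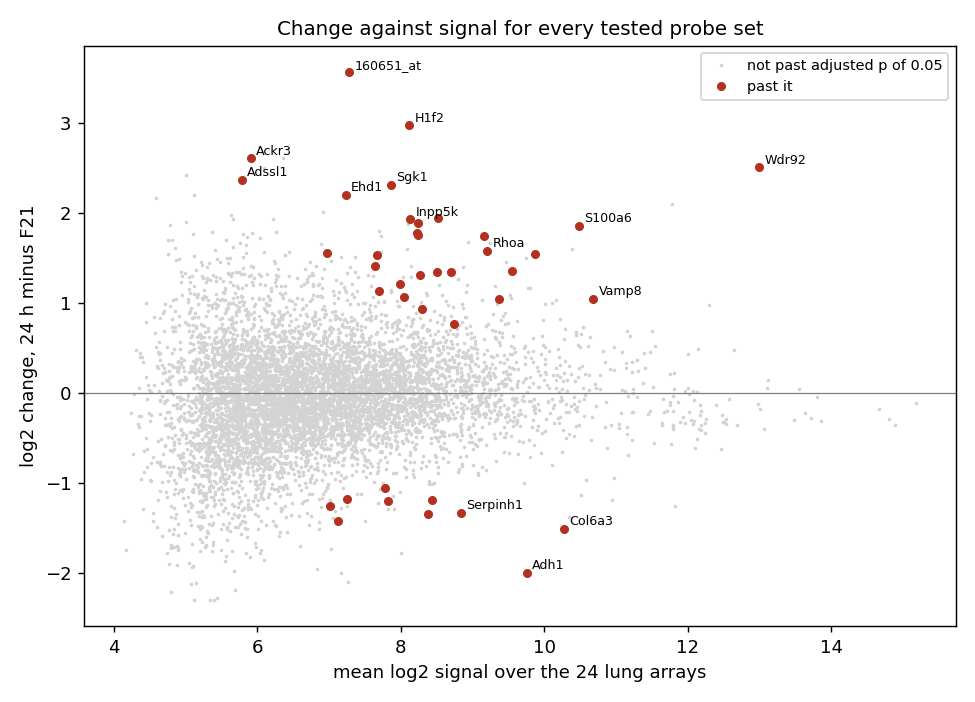
Change at 24 h against F21 for each of the 6930 tested probe sets (vertical axis, log2) by mean log2 signal over the 24 lung arrays (horizontal axis), with the 40 that passed an adjusted p of 0.05 in red. Most of the 40 lie at middle to high signal, and the dim probe sets scatter most widely with few that passed.

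The 24 h arrays did not move to the same degree. In 26 of the 30 rising probe sets the second 24 h array had the smallest change of the 3, with a median of log2 1.06 above the F21 mean, against 1.80 in the first and 1.97 in the third. Among the 10 falling probe sets it was the nearest to F21 in 5, and the first array in 4. All 3 arrays of 24 h lay above all 3 of F21 in 29 of the 30 rises and below them in each of the 10 falls. Over all tested probe sets, 8.46% lay wholly above and 9.8% wholly below.

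**Figure D2:**
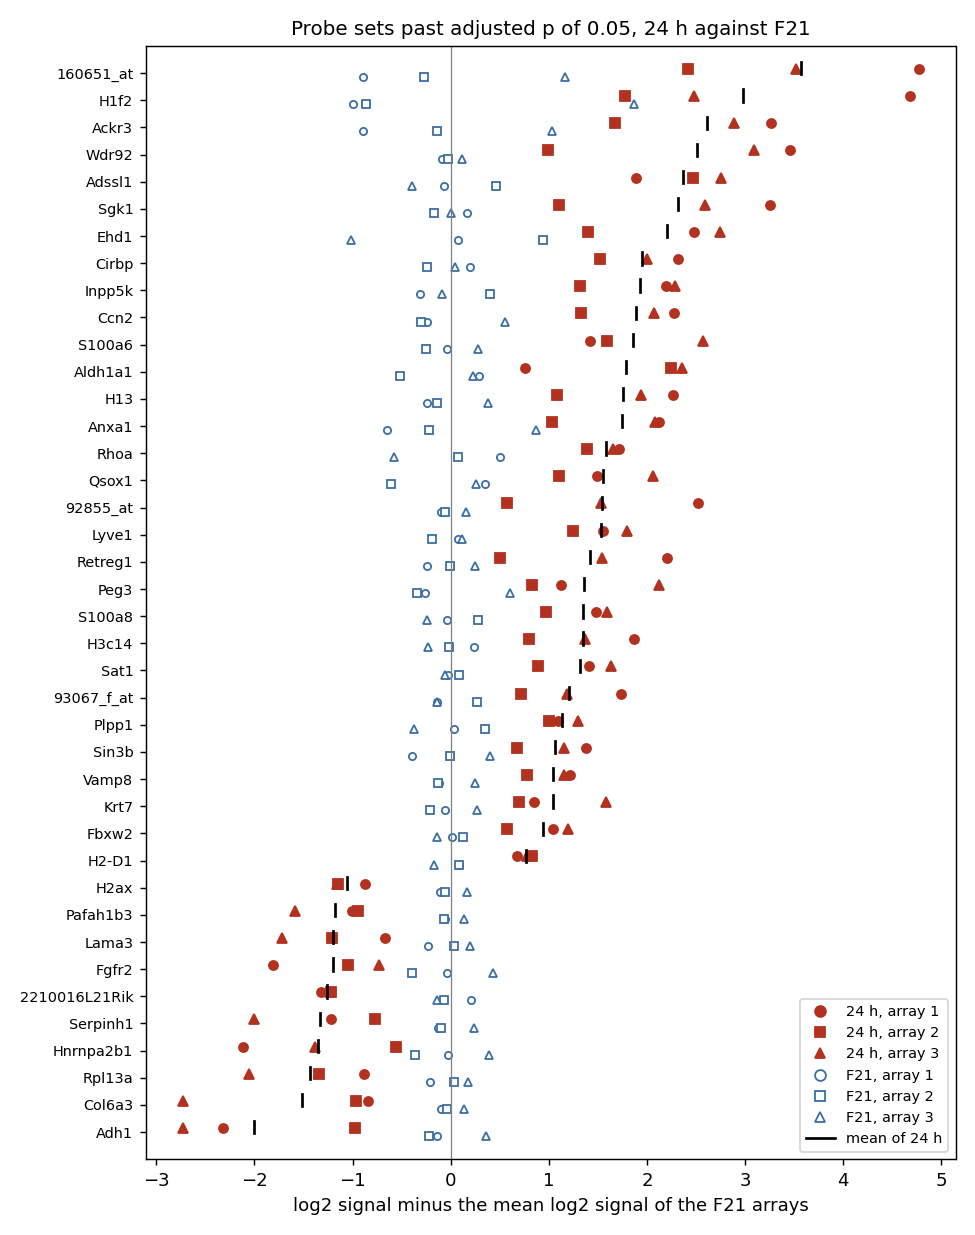
Log2 signal of each array minus the mean log2 signal of the 3 F21 arrays for the 40 probe sets that passed, with 24 h arrays in filled red, F21 arrays in open blue and a black bar at the 24 h mean. The second 24 h array (red square) lies nearest to F21 in 26 of 30 rises, and H1f2 is the 1 probe set whose groups overlap.

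The rises that held best were S100a6, Inpp5k, H13, Rhoa and the unnamed probe set 160651_at, each of which passed in 15 of the 16 other limma settings, including all 6 that left out 1 array. S100a6, a calcium-binding protein of epithelial and stromal cells, had signals of 2414, 2712 and 5338 at 24 h, against 879, 759 and 1096 at F21. Every 24 h array was above every F21 array, the third by the most. The change was log2 1.86 (SE 0.27, adjusted p = 0.00147), or 3.63-fold. Inpp5k, a phosphoinositide 5-phosphatase that dampens PI3-kinase signaling, had signals of 778, 424 and 832 at 24 h, against 137, 226 and 160 at F21, a change of log2 1.93 (SE 0.28, adjusted p = 0.00147). Here the second 24 h array was the lowest of its group and still above the highest F21 array. H13, the signal peptide peptidase that clears leader peptides from the endoplasmic reticulum membrane, gave 720, 318 and 574 at 24 h, against 127, 136 and 195 at F21 (log2 1.76, adjusted p = 0.00165).

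Rhoa encodes a small GTPase that sets actin tension, and only 1 of its 3 probe sets changed. That probe set had 1435, 1137 and 1369 at 24 h, against 618, 457 and 293 at F21, with no overlap (log2 1.59, SE 0.26, adjusted p = 0.00414). The other probe sets were at log2 0.16 (adjusted p = 0.878) and -0.08 (adjusted p = 0.974), so that the gene as a whole cannot be given a direction. The probe set 160651_at carries no gene symbol in the annotation and rose the furthest of the 30 rises that passed. It had 806, 158 and 339 at 24 h, against 15.9, 24.5 and 66.3 at F21 (log2 3.57, SE 0.55, adjusted p = 0.00165).

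The genes of the next 4 rises have roles in epithelium, secretion and inflammation. Krt7, a keratin of simple epithelia, changed by log2 1.04 (SE 0.24, adjusted p = 0.0448), with 706, 633 and 1168 at 24 h, against 376, 339 and 470 at F21. Vamp8, a SNARE protein with which secretory granules fuse to the membrane, changed by log2 1.05 (SE 0.19, adjusted p = 0.0108), and its 24 h arrays, at 3535, 2609 and 3399, all exceeded the F21 arrays, at 1405, 1398 and 1813. A dimmer Vamp8 probe set was at 0.95 (adjusted p = 0.072). Anxa1, a phospholipid-binding protein that glucocorticoids induce and that restrains inflammation, was at log2 1.74 (adjusted p = 0.0497) at 1 probe set and at 1.36 (adjusted p = 0.137) at the other. Qsox1, a secreted enzyme that forms disulfide bonds, was at log2 1.55 (adjusted p = 0.0361) and at 1.63 (adjusted p = 0.269) at a second, dimmer probe set.

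A pair of enzymes of the retinoid pathway, which turns vitamin A into retinoic acid, moved in opposite directions. Aldh1a1, a retinaldehyde dehydrogenase that is abundant in airway club cells, had 319, 895 and 969 at 24 h, against 231, 132 and 222 at F21. All 24 h arrays were above all F21 arrays, the first by little, and the change was log2 1.79 (SE 0.36, adjusted p = 0.0182). A second, dim Aldh1a1 probe set, at 20.8 to 35.1 at 24 h and 7.4 to 75.9 at F21, was at log2 -0.45 (adjusted p = 0.9). Adh1, an alcohol dehydrogenase that also oxidizes retinol, had 478, 1211 and 360 at 24 h, against 2167, 2039 and 3045 at F21. At log2 -2.0 (SE 0.39, adjusted p = 0.0171), 4.01-fold lower at 24 h, it was the furthest of the 10 falls that passed. The second 24 h array of Adh1 was the highest of the group but lay below every F21 array. Of 9 retinoid genes tested these were the 2 that passed, and the list's median was -0.12 (-0.02 without the first and -0.32 without the third F21 array).

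Sgk1, a kinase that glucocorticoids induce and that keeps the epithelial sodium channel at the cell surface, had 783, 177 and 496 at 24 h, against 92.1, 73.1 and 82.6 at F21 (log2 2.32, SE 0.51, adjusted p = 0.0361). The 24 h arrays differed widely among themselves and the call held in 1 of 6 fits without 1 array. Ccn2, a secreted matrix factor (connective tissue growth factor) that responds to stretch and to the transcription factors YAP and TEAD, had 673, 348 and 585 at 24 h, against 117, 113 and 204 at F21 (log2 1.89, SE 0.33, adjusted p = 0.00903). Cirbp, an RNA-binding protein that cells induce on mild cooling, had 884, 509 and 714 at 24 h, against 204, 150 and 183 at F21 (log2 1.95, SE 0.39, adjusted p = 0.0182). Every 24 h array was above the highest F21 array. Sat1, which acetylates spermidine and so lowers polyamines, was at log2 1.31 (SE 0.29, adjusted p = 0.0358).

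Among genes of vessels and immune cells, Lyve1, the hyaluronan receptor of lymphatic endothelium, had 322, 260 and 380 at 24 h, against 115, 96.1 and 119 at F21 (log2 1.53, SE 0.29, adjusted p = 0.0159). No 24 h array came near the F21 arrays. Ackr3, a receptor that scavenges the chemokine CXCL12, was at log2 2.61 (SE 0.60, adjusted p = 0.042), with 1 F21 array near the floor at 10.2. S100a8, a subunit of the calprotectin of neutrophils, had 398, 280 and 431 at 24 h, against 140, 174 and 121 at F21 (log2 1.34, SE 0.28, adjusted p = 0.0283). Its partner S100a9 had a nearly equal change of log2 1.35 that did not pass (SE 0.42, adjusted p = 0.155), with 152, 168 and 160 at 24 h, against 78.4, 50.7 and 61.5 at F21. H2-D1, a class I histocompatibility chain whose probe set may also detect related chains, had the smallest change that passed, log2 0.76 (SE 0.17, adjusted p = 0.0397). Another H2-D1 probe set was at 0.67 (SE 0.21, adjusted p = 0.155).

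The remaining rises had mixed roles. Ehd1 (log2 2.21), which returns endocytosed receptors to the membrane, Retreg1 (1.42), a receptor for autophagy of the endoplasmic reticulum, and Plpp1 (1.13), which removes phosphate from lipid mediators, passed at adjusted p = 0.0159, 0.0413 and 0.0303. Adssl1 (2.37, adjusted p = 0.0236), the adenylosuccinate synthase of muscle, was dim at both ages, at 48.8 to 88.8 at 24 h and 6.7 to 18.1 at F21. The summed signal of 35 heart and skeletal muscle markers on the array was 2934 to 3402 at 24 h and 1995 to 2377 at F21, and its part in the Adssl1 change was not tested. Fbxw2 (0.94, adjusted p = 0.0303), a subunit of ubiquitin ligases, and Sin3b (1.07, adjusted p = 0.0299), a corepressor of transcription, also passed, the last at 1 of 2 probe sets, with the other at 0.09 (adjusted p = 0.979). Peg3, an imprinted gene expressed from the paternal copy, passed at 1 of its 3 probe sets (1.36, adjusted p = 0.042) and was at 0.57 and 0.15 at the others.

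The probe set annotated to Wdr92 also rose, with 23390, 4218 and 18105 at 24 h, against 2002, 2093 and 2296 at F21 (log2 2.51, SE 0.49, adjusted p = 0.0176). Wdr92 takes part in the assembly of ciliary dynein. Markers of ciliated cells summed to 4355 to 6002 at 24 h and 3370 to 8567 at F21. The brightest of them was Tuba1a, a tubulin, so that the sum says little of the others. Its mean log2 signal over the 24 lung arrays was 11.9, against 9.6 for Rsph1 and 7.3 for Foxj1. None of the 5 ciliated cell markers tested passed and their median was -0.105. The part of ciliated cells in the change of this probe set was not tested. The second 24 h array was far below the other two and nearer to F21. Histone probe sets rose as well, among them those annotated to H1f2, a linker histone (log2 2.98, SE 0.67, adjusted p = 0.0397), and H3c14, a core histone (1.34, adjusted p = 0.0128). H1f2 gave 1340, 179 and 291 at 24 h, against 26.1, 28.6 and 190 at F21, and its groups overlapped. Histone genes are near-identical copies, and the probe set that carries several H2A symbols (93067_f_at, log2 1.21) was designed on the same sequence as the H3c14 one, so that the gene behind these signals is uncertain. The unnamed 92855_at was at log2 1.54 (adjusted p = 0.0458).

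Of the 10 falls, 3 were in genes of the extracellular matrix and its assembly. Serpinh1, the chaperone that folds collagen in the endoplasmic reticulum, had 367, 502 and 213 at 24 h, against 781, 796 and 1006 at F21 (log2 -1.33, SE 0.25, adjusted p = 0.0128). Col6a3, a chain of the beaded-filament collagen VI, had 1052, 971 and 285 at 24 h, against 1761, 1848 and 2075 at F21 (log2 -1.51, SE 0.34, adjusted p = 0.0397). Lama3, a chain of the laminins that anchor epithelium to its basement membrane, had 237, 162 and 114 at 24 h, against 320, 384 and 432 at F21 (log2 -1.20, SE 0.26, adjusted p = 0.0303). In each of the 3 genes the third 24 h array was the lowest and no array crossed into the other group.

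Fgfr2, the receptor with which lung epithelium reads the branching signal FGF10, had 193, 329 and 411 at 24 h, against 662, 517 and 919 at F21, at 1 probe set (log2 -1.20, SE 0.27, adjusted p = 0.0397). A second Fgfr2 probe set overlapped between the ages and was at -0.33 (adjusted p = 0.787). Hnrnpa2b1, which binds and sorts messenger RNA, was at log2 -1.35 (SE 0.30, adjusted p = 0.0397), and Rpl13a, a ribosomal protein, at -1.43 (SE 0.30, adjusted p = 0.0283). Rpl13a was the 1 gene of 23 cytosolic ribosomal proteins tested that passed, and the median of the 23 was -0.30, with 2 of them above 0. That median was -0.13 without the second 24 h array, -0.19 without the third F21 array and -0.16 after quantile normalization.

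H2ax, the histone variant that marks broken DNA and is made during replication, had 151, 125 and 123 at 24 h, against 255, 265 and 310 at F21 (log2 -1.06, SE 0.24, adjusted p = 0.0397). Pafah1b3, a catalytic subunit of a platelet-activating factor acetylhydrolase, had 95.7, 99.5 and 63.7 at 24 h, against 184, 183 and 210 at F21 (log2 -1.18, SE 0.25, adjusted p = 0.0281). The probe set annotated to 2210016L21Rik was at -1.26 (adjusted p = 0.0448). In all 3 the groups did not overlap.

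The promoters of 4 of these genes are shown, for both directions of the comparison. S100a6 and Inpp5k are rises that passed in nearly all settings. Adh1 is the furthest fall that passed, and Serpinh1 the matrix fall with the smallest adjusted p. Each promoter runs 5′ to 3′ from 250 bases before the start of the gene to 50 bases from it, as given by RefSeq on GRCm38.p6. Capitals mark matches, on either strand, to any of 8 short motifs: the CCAAT box (CCAAT), the TATA box (TATAAA), the E-box (CACGTG), the AP-1 site (TGANTCA), the CRE (TGACGTCA), the TEAD site (GGAATG), an antioxidant response element (TGACNNNGC) and a heat shock element (GAANNTTC). Matches to the CRE and the antioxidant response element can overlap.
S100a6, chr3:90612644-90612943 (plus strand): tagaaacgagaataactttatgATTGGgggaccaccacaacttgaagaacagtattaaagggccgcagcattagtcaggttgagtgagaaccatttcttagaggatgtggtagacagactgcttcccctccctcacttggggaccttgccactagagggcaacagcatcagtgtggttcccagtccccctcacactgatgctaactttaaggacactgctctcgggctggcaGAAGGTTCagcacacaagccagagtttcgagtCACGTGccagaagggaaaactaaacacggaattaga
Inpp5k, chr11:75630770-75631069 (plus strand): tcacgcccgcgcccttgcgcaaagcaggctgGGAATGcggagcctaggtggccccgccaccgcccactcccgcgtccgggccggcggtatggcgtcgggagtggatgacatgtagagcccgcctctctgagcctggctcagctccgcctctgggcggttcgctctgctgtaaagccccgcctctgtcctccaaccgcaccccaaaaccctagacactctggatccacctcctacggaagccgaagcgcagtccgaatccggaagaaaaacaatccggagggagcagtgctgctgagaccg
Adh1, chr3:138277335-138277634 (plus strand): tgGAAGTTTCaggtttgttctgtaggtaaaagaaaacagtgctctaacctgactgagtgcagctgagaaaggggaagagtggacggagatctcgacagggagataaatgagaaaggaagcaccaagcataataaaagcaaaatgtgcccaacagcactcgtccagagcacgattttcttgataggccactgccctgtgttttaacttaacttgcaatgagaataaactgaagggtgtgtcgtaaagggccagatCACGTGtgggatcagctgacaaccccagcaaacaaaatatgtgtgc
Serpinh1, chr7:99353190-99353489 (minus strand): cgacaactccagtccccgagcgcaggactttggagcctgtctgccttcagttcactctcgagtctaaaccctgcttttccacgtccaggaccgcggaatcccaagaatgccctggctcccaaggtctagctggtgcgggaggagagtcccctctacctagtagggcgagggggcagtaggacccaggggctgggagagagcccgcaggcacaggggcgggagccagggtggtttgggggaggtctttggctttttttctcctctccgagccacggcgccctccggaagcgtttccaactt

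The S100a6 and Adh1 windows each held an E-box, 14 and 4 bases past the start, and each a heat shock element, while the Inpp5k window held a TEAD match and that of Serpinh1 none of the 8. Promoter windows were found for 29 of the 37 genes. A window with an E-box was found for 3 of 6 falls (Adh1, Fgfr2, Rpl13a) and 3 of 23 rises (Retreg1, S100a6, Sgk1), against 8.1% of all genes. A TEAD match was found for 6 of 23 rises (Aldh1a1, Anxa1, Fbxw2, Inpp5k, Peg3, Sgk1) and none of the falls, against 16.6% of all genes. TATA boxes were found for 7 of 23 rises and none of the falls, against 15.7%. Heat shock elements were found for 3 rises and 2 falls, against 9.0%, and AP-1 sites for 3 rises, against 9.0%. CCAAT boxes were found for 10 rises and 2 falls, against 41.1%. The CRE was found for 2 rises, against 2.0% of all genes, and the antioxidant response element for 1 rise and 1 fall, against 14.0%. These shares count genes, and a gene with more windows has more places for a match. The 23 rises had 35 windows, against 32851 for all 27025 genes. By window, rises had a TATA box in 22.9% against 13.6% of all windows. TEAD matches were in 20.0% against 14.7% and CCAAT boxes in 31.4% against 37.4%. With so few genes these shares are a description of letters, and a match is not a site in use.

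The earlier ages of room air show by which route the 24 h level was reached. Each age was set against the same F21 arrays, so the changes at 2, 6, 12 and 24 h are not independent. S100a6 was at log2 -0.05, 0.72, 1.85 and 1.86 at these ages, and passed at 12 h (adjusted p = 0.00109) and 24 h. Krt7, at -0.18, 0.80, 1.28 and 1.04, and Fbxw2, at -0.24, 0.55, 0.85 and 0.94, likewise passed at 12 and 24 h but not at 2 or 6 h. Aldh1a1 was at 0.55, 0.63, 1.52 and 1.79, and Vamp8 at -0.54, 0.58, 0.70 and 1.05. Of these 5 genes, S100a6, Krt7, Fbxw2 and Vamp8 had changes of 0 or below at 2 h.

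Other genes had already moved at 2 h. S100a8 was at log2 1.65, 3.04, 1.87 and 1.34 at 2, 6, 12 and 24 h, with single arrays of up to 1509 at 6 h, and passed at every age. Sgk1 was at 2.87, 2.40, 1.54 and 2.32 and passed at all but 12 h (adjusted p = 0.169). Ccn2 was at 1.35, 1.92, 1.34 and 1.89 and Cirbp at 1.46, 1.56, 1.72 and 1.95, both past the threshold at each age. Adh1 was at -1.96, -2.10, -2.12 and -2.0, so that it was as low at 2 h as at 24 h. Serpinh1 was at -0.60, -0.92, -1.42 and -1.33, and passed at 12 and 24 h.

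**Figure D3:**
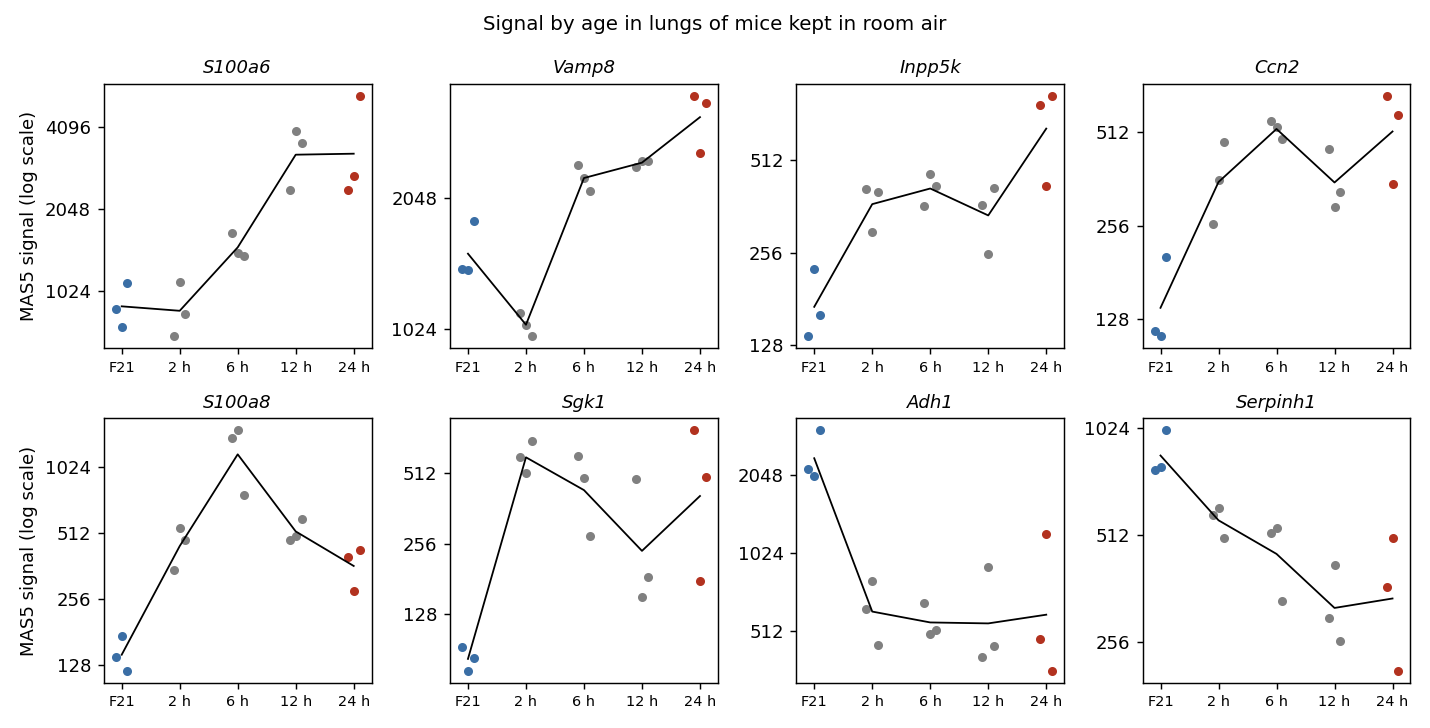
MAS5 signals (log scale, floored at 10) of 8 genes in room air at F21 and 2, 6, 12 and 24 h after birth, with 3 arrays per age as points, F21 in blue, 24 h in red and the line through the means of log2 signals. S100a6 and Vamp8 are near or below the fetal level at 2 h, S100a8 is highest at 6 h, and Adh1 is low from 2 h on.

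When the 24 h arrays were set against the mean of the 2, 6 and 12 h arrays, no probe set of 6930 passed in limma (0%), while 97 had an unadjusted p under 0.01 and 392 under 0.05. The smallest adjusted p was 0.0888, reached by Sema4a and Vamp8. Sema4a, a membrane semaphorin, had 21.0, 54.3 and 25.9 at 24 h and was at log2 -1.95 (SE 0.36) against the earlier ages. It was at 0.16, 0.06 and 0.54 against F21 at 2, 6 and 12 h and at -1.70 at 24 h (adjusted p = 0.072). Vamp8 was at 0.80 (SE 0.15) and S100a6 at 1.02 (SE 0.22, adjusted p = 0.152) against the earlier ages. Dlk1, an imprinted inhibitor of Notch signaling, was at -1.07 against the earlier ages (adjusted p = 0.469).

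Lists of genes with a shared role were then described by how many members passed and by their median, with the brightest tested probe set of each gene. Over all 5323 genes tested the median was -0.04 and 2507 were above 0, with 26 past the threshold as higher and 9 as lower. Unadjusted p under 0.05 was reached by 5.66% of probe sets for a rise and 4.52% for a fall. Since these lists were drawn up with results of these data known, their counts stand without a test.

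Genes that drive cell division lay low at 24 h. Of 33 genes of the mitotic cell cycle tested, 30 were below 0 and the median was -0.63. H2ax alone fell, no gene rose and 32 did not pass. Unadjusted p under 0.05 was reached by 9 falls and 1 rise. All 24 h arrays lay below all F21 arrays in 13 genes and above them in none, against 525 below and 470 above of all 5323 genes. Cdk1, the kinase that starts mitosis, had 134, 104 and 47.4 at 24 h, against 161, 228 and 278 at F21, a change of log2 -1.32 that did not pass (SE 0.34, adjusted p = 0.071). Its partner cyclin Ccnb2 was at -0.90 (adjusted p = 0.137), the kinase subunit Cks2 at -2.19 (adjusted p = 0.163) and Birc5, which guides chromosomes at division, at -1.76 (adjusted p = 0.269).

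Of 25 genes of DNA replication none passed, 6 were above 0 and the median was -0.37 (-0.24 after quantile normalization). Rfc5, a clamp loader, was at -1.22 and Rrm2, which makes deoxynucleotides, at -1.89. Cdkn1a, which encodes the cell cycle inhibitor p21 and was studied further by the authors, had 827, 142 and 483 at 24 h, against 93.9, 142 and 85.5 at F21, a change of log2 1.88 that did not pass (SE 0.47, adjusted p = 0.0596). Its second 24 h array was level with the second F21 array. Of the 11 tested genes of the study's cell and null-mouse experiments none passed, and Klf4, the transcription factor at their centre, was at log2 2.47, 1.78, 1.45 and 1.57 at 2, 6, 12 and 24 h (adjusted p = 0.141 at 24 h), with 540, 157 and 208 at 24 h and 77.0, 97.0 and 90.2 at F21.

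Imprinted and fetal growth genes, many of which promote growth before birth and are silenced afterwards, also had a low median. Of 14 tested, Peg3 alone rose and was the 1 gene above 0, none fell, and the median was -0.54. Mest, expressed from the paternal copy, had 83.1, 171 and 111 at 24 h, against 237, 304 and 296 at F21 (log2 -1.25, adjusted p = 0.0886), and the groups did not overlap. Dlk1 was at -1.26 (adjusted p = 0.155), Cdkn1c at -0.85 (adjusted p = 0.144) and Gnas at -0.63 (adjusted p = 0.168). Igf1r, the receptor of insulin-like growth factor 1, was at 0.95 (adjusted p = 0.0583), with 379, 271 and 308 at 24 h, against 173, 169 and 150 at F21.

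Glucocorticoid targets had a median of 0.90, with 12 of 14 above 0. Without the first 24 h array it was 0.54, below the 0.66 of vasoactive signaling. Sgk1 and Ccn2 rose, none fell and 12 did not pass. Dusp1, a phosphatase that switches off MAP kinases, was at log2 3.13, 2.45, 1.54 and 1.68 at 2, 6, 12 and 24 h and did not pass at 24 h (adjusted p = 0.072). Errfi1, an inhibitor of the EGF receptor, was at 1.5 (adjusted p = 0.174), and Cdkn1c, which is also on this list, at -0.85 (adjusted p = 0.144). Of 10 genes of lung liquid clearance Sgk1 alone passed, and the median was 0.46. Aqp1, the water channel of lung vessels, was at 1.17 (adjusted p = 0.16), Atp1b1, a subunit of the sodium pump, at 0.67 (adjusted p = 0.366), and Nedd4l, the ligase that removes the sodium channel from the membrane, at -0.49 (adjusted p = 0.353). Of 32 immediate early genes Ccn2 alone passed.

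No gene passed among 16 of vasoactive signaling, of which 14 were above 0, and the median was 0.59. Ramp1 and Ece1, a receptor partner for vasodilator peptides and the enzyme that makes active endothelin, were at 0.79 and 0.80 (adjusted p = 0.106 and 0.184), and Edn1, endothelin itself, at 1.31 (adjusted p = 0.38). None passed among 13 genes of the circadian clock (median 0.56, and 0.175 without the first 24 h array), in which Nr1d2 was at 2.43 (adjusted p = 0.128) and was dim. The hour of day of sampling was not given in the sources used here. None passed among 16 matrix proteases and inhibitors (median 0.46, 13 above 0), of which Ctsl, a lysosomal protease, came closest at 0.97 (adjusted p = 0.0886).

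Of 23 fibrillar collagens and their chaperones Serpinh1 and Col6a3 fell, none rose and 21 did not pass, with a median of -0.16 (-0.09 without the third 24 h array). Sparc, a collagen-binding matrix protein, was at 0.77 (adjusted p = 0.125). Of 35 genes of basement membrane and elastic fibers Lama3 fell and 34 did not pass. The median of the 35 was 0.04 and went below 0 after quantile normalization (-0.03), without the second 24 h array (-0.085) and without the third F21 array (-0.015). Spock2, a proteoglycan, was at 1.41 (adjusted p = 0.0987), Tnc, tenascin C, at 1.31 (adjusted p = 0.193), Fbn2, the fetal fibrillin, at -2.12 (adjusted p = 0.172) and Fn1, fibronectin, at -0.52 (adjusted p = 0.204). Members of both matrix lists lay on either side of 0.

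**Figure D4:**
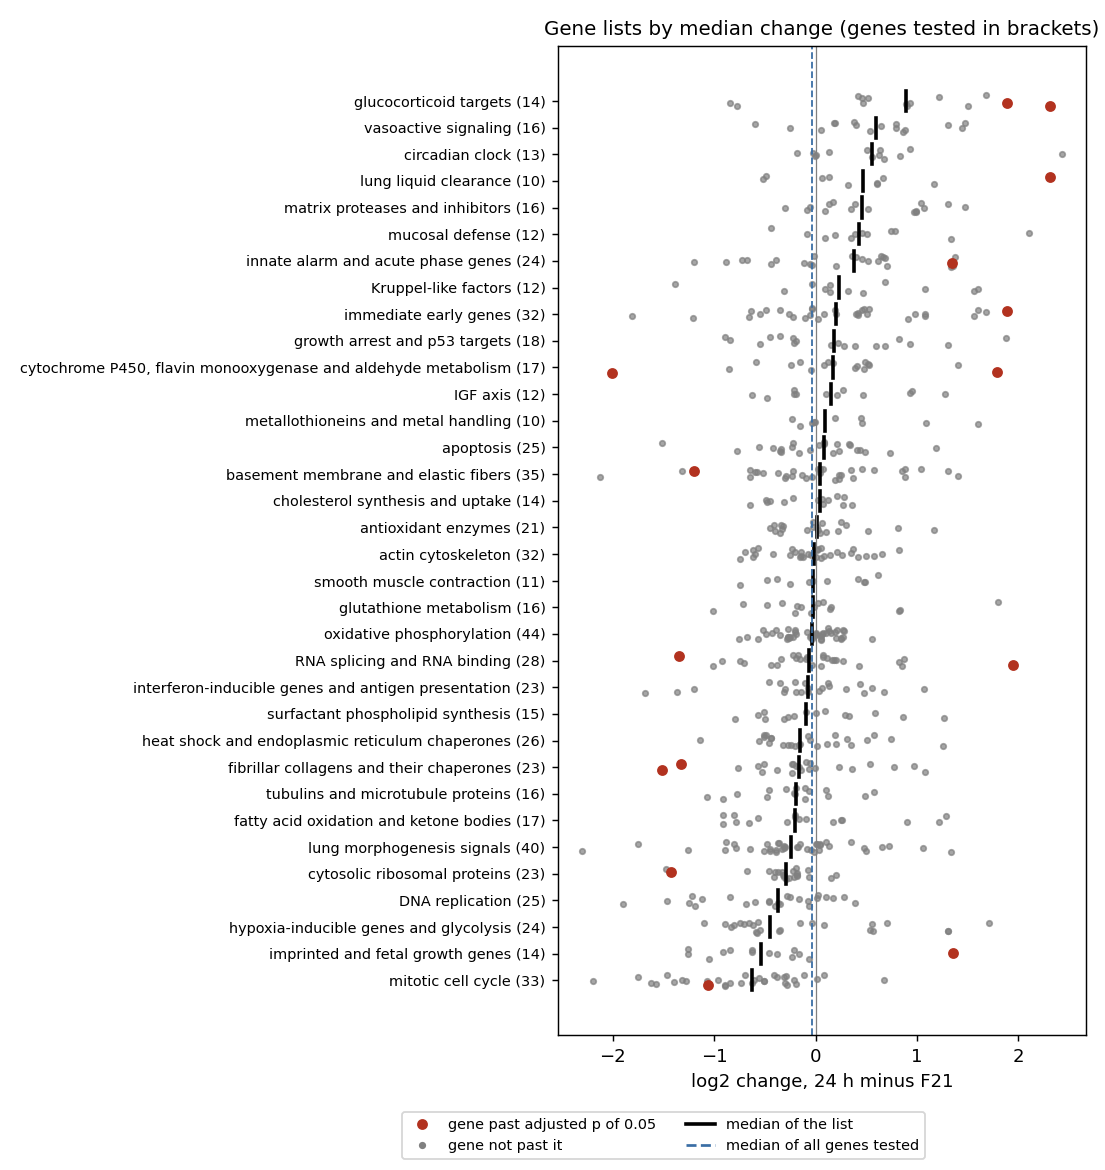
Log2 change at 24 h against F21 for each gene of the lists with at least 10 tested genes, ordered by median, with genes past an adjusted p of 0.05 in red, list medians as black bars and the median of all 5323 genes as a dashed blue line. Glucocorticoid targets lie at the top (median 0.90) and mitotic cell cycle genes at the bottom (median -0.63).

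None of 7 surfactant and lamellar body genes passed (median 0.005, and -0.13 without the third F21 array). Of these, Napsa, a protease that trims surfactant proteins, was at log2 0.69 (adjusted p = 0.274), with 2432, 3195 and 4888 at 24 h, against 2045, 1978 and 2233 at F21, without overlap. Pnpla2, a lipase that mobilizes stored fat, came close to the threshold at 1.26 (SE 0.30, adjusted p = 0.0513), and Cpt1a, which admits fatty acids to mitochondria, was at 1.29 (adjusted p = 0.0886). None of 44 genes of oxidative phosphorylation passed (median -0.03), nor any of 21 antioxidant enzymes (median 0.02) or 16 genes of glutathione metabolism (median -0.03). Within these, Txnip, a brake on thioredoxin, was at 1.17 (adjusted p = 0.138), Gsr, which regenerates glutathione, at 0.83 (adjusted p = 0.15) and Gclc, which makes it, at 1.80 (adjusted p = 0.155). Mt2, a metal-binding protein, had 3185, 1091 and 1994 at 24 h, against 456, 587 and 929 at F21 (log2 1.60, SE 0.39, adjusted p = 0.0544).

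Markers of the lung's cell types were summed. In whole tissue, fewer cells of a type and less RNA per cell cannot be told apart, and these sums cannot do so either. The 9 type 2 cell markers on the array summed to 55431 to 60132 at 24 h and 54535 to 68420 at F21. Most of this sum on each array was Sftpc, so that it says little of the other type 2 markers. The 10 type 1 cell markers summed to 10233 to 14498 at 24 h and 10498 to 12571 at F21. The 10 club cell markers summed to 8693 to 13517 at 24 h, against 3017 to 4864 at F21, and the ages did not overlap. Most of the sum on each 24 h array was 1 gene, so that the sums say little of the other markers. This was Scgb1a1, the secretoglobin of club cells, with 6662, 9824 and 7274 at 24 h, against 2731, 2744 and 798 at F21 (log2 2.10, SE 0.52, adjusted p = 0.0567). Of the 9 club cell markers tested Aldh1a1 alone passed, 7 were above 0 and the median was 0.41. Ces1d was at -0.24, Aldh1a7 at -0.04 and Cbr2 at 0.17. The part of club cells in the Aldh1a1 change was not tested. The 32 macrophage and monocyte markers summed to 8146 to 10028 at 24 h, against 5562 to 7374 at F21, with 22 tested and none past the threshold (median 0.39).

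Neutrophil markers, 18 on the array, summed to 1378 to 1799 at 24 h and 984 to 1527 at F21. Of the 9 tested S100a8 alone passed, 8 were above 0 and the median was 0.46. The part of neutrophil number in the S100a8 change was not tested. Erythroid markers, led by alpha globin, summed to 34093 to 37630 at 24 h, against 39846 to 44759 at F21, with none of 18 past the threshold. Of tissues that a dissected lung may bring with it, heart and skeletal muscle markers were higher in sum at 24 h, as given above, with Cox6a2, a cytochrome oxidase subunit of striated muscle, at log2 2.50 (adjusted p = 0.209) and none of 24 past the threshold. Esophagus, trachea and cartilage markers, 19 on the array, summed to 1186 to 1348 at 24 h, against 1496 to 2225 at F21, without overlap. None of the 11 tested passed, 2 were above 0 and the median was -0.47. Their part in the falls of matrix genes was not tested. Liver markers summed to 310 to 416 at 24 h and 384 to 443 at F21, and F2 and Apoh were under 10 on all 6 arrays.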

How the data were processed

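RNA of whole lung had been hybridized to Affymetrix MGU74Av2 arrays, 1 array per sample. The deposited values are linear signal intensities that the authors computed in MAS5, bringing all chips to the target intensity of 100. The authors kept genes by detection p-value. Those p-values were not used, and a filter on signal took their place. Controls (66 probe sets) were dropped, values below a floor of 10 were raised to it, and log2 was taken. Testing was limited to the 6930 of 12422 probe sets that ranked in the top 40% on 3 or more of the 24 lung arrays. Probe sets were named from the platform annotation, in which 10855 carry 1 gene symbol, 396 several and 1237 none.

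Changes were estimated with limma 3.58.1 in R 4.3.3 over the 8 lung groups (16 residual degrees of freedom), with variances moderated toward their trend on signal and Benjamini-Hochberg adjustment over all tested probe sets. The 24 h lungs were compared with F21 and with the mean of 2, 6 and 12 h. The procedure was tested on simulated data. Named are all genes that passed and a choice of others. The choice was made mostly from the 4 members of each gene list with the smallest p. It also drew on the genes of the study's cell and null-mouse experiments and the 10 probe sets with the smallest p against the earlier ages. Not every gene of these sets is named. The comparison, the lists and the genes to name were chosen with earlier results of these data known. List symbols that the array holds under another name were matched through RefSeq synonyms, and a gene with several probe sets stood in a list with its brightest one.

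The alternatives were quantile normalization, lowering the floor to 1, adding 16 to each signal instead, testing all probe sets or those with a median in the top 30%, fitting room air lungs or the 6 arrays alone, a replicate block, array weights, no variance trend, leaving out each array, and the test of the methods on log2 and linear signals. Promoters came from RefSeq on GRCm38.p6. The array's own annotation names no genome build in the sources used here, so no gene coordinates are given. Livers were not used, and lungs of 10% oxygen entered the estimate of spread only.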

Additional observations from a re-analysis of the deposited data

How the results depend on the processing

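None of the 40 probe sets changed direction under the 16 other limma settings, but the number past the threshold did change. It was 22 with no filter (18 higher, 4 lower), 87 with the top 30% by median signal (62 and 25), 63 with room air lungs only (50 higher and 13 lower), 256 with array weights (167 and 89), 8 without the variance trend (7 and 1) and 0 with the 6 arrays only. Leaving out 1 array gave 6 to 123, with 5 to 92 higher and 0 to 31 lower: 26, 123 and 9 without 24 h arrays 1, 2 and 3, and 6, 9 and 16 without F21 arrays 1, 2 and 3. The methods' t-test after Benjamini-Hochberg adjustment gave 0 on log2 signals and 1 on linear signals (0 higher, 1 lower). At an unadjusted p under 0.01, limma gave 279, array weights 551, the methods' t-test 154 on log2 and 167 on linear signals, and leaving out 1 array 172 to 364. The cause of these differences was not tested. The median SD within a group was 0.419 to 0.480 in lungs of 10% oxygen, which the estimate of spread included, against 0.288 to 0.363 in lungs of room air.

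Of the 40 probe sets, 40 passed with array weights and with a pseudocount of 16, 39 with a floor of 1, 38 without 24 h array 2, 29 after quantile normalization, and 6 without 24 h array 3 or F21 array 1. With a replicate block 44 passed (31 higher, 13 lower), 35 of them among the 40. Same-numbered 24 h and F21 arrays deviated from their group means together by an r of 0.033, 0.034 and 0.084. For arrays of unlike number r was -0.097 to 0.051. Deviations from a mean of only 3 arrays are tied to each other, so these values cannot decide whether the numbers pair the samples. Against the earlier ages, 4 passed with room air lungs only (2 higher, 2 lower), 57 with array weights (28 and 29), 0 to 1 with 1 array left out (0 higher, 0 to 1 lower), and 0 with the replicate block. Among gene lists 14 genes passed with the brightest probe set and 16 when every probe set counted. Of the named genes that did not pass, Sftpc alone changed sign, to 0.00 after quantile normalization, and 37 of 52 passed with array weights. Over the scalings, the filter and each left-out array, the median of glucocorticoid targets was 0.54 to 1.05 and that of mitotic cell cycle genes -0.71 to -0.48.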

Other observations

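Genes of the response to low oxygen and of glycolysis lay low at 24 h as a list, without any member past the threshold. Of 24 tested, 8 were above 0 and the median was -0.45. All 24 h arrays lay below all F21 arrays in 7 and above them in 3, against 525 below and 470 above of all 5323 genes. The members did not move as 1 group. Unadjusted p under 0.05 was reached by 5 falls and 3 rises. Tpi1 and Aldoa, enzymes of glycolysis, were at log2 -0.83 (adjusted p = 0.305) and -0.66 (adjusted p = 0.352). Epas1, the hypoxia-inducible factor of endothelium, had 162, 197 and 173 at 24 h, against 66.9, 76.4 and 71.3 at F21 (log2 1.31, SE 0.50, adjusted p = 0.305), and Slc2a3, a glucose transporter, was at 1.71 (adjusted p = 0.328). Of 40 lung morphogenesis signals none passed and 14 were above 0 (median -0.24, and -0.105 without 24 h array 1). Fgfr4, a growth factor receptor, was at -2.30 (adjusted p = 0.177) with 1 array of 24 h under the floor, and Pdgfra, the receptor of the fibroblasts that build alveolar walls, had 155, 177 and 197 at 24 h, against 287, 326 and 366 at F21 (log2 -0.89, SE 0.32, adjusted p = 0.255).

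Of 24 innate alarm and acute phase genes S100a8 alone passed, and the median was 0.38. Icam1, the adhesion molecule that leukocytes bind, had 217, 242 and 223 at 24 h, against 76.2, 72.5 and 121 at F21, with no overlap (log2 1.38, SE 0.36, adjusted p = 0.072). Among 12 Kruppel-like factors none passed, and Klf6 was at 1.60 (adjusted p = 0.125), with 848, 211 and 476 at 24 h, against 123, 167 and 149 at F21. Ctss, a protease of macrophages, was at 1.07 (adjusted p = 0.137), Plat, tissue plasminogen activator, at 1.47 (adjusted p = 0.253) and Timp3, an inhibitor of metalloproteinases, at 0.99 (adjusted p = 0.285). The metallothionein Mt1 was at 1.09 (adjusted p = 0.235), with 1534, 329 and 844 at 24 h, against 273, 388 and 414 at F21, so that its ages overlapped. The replication helicase subunit Mcm5 was at -1.12 (adjusted p = 0.519), and the striated muscle gene Csrp3 at 2.17 (adjusted p = 0.305).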
